A study of Homo sapiens with 16 samples.

Results

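MYC and 7 genes of its dimerization network, MAX, MGA, MNT, MLX, MXD3, MXD4 and MXI1, were followed through 24 h of SMARCA5 degradation. They were taken by gene symbol from tables of polymerase counts that list 10304 transcripts of 10286 genes, and each of the 8 was listed once. SMARCA5 is the ATPase of the ISWI chromatin remodellers, which space nucleosomes evenly. The assay was PRO-seq, a nuclear run-on that maps engaged RNA polymerases by the biotinylated RNA they extend, so the values are of transcription and not of mRNA or protein. The cells were Kasumi-1, an established human line from acute myeloid leukaemia with the fusion gene RUNX1-RUNX1T1. In all 14 libraries used here, untreated controls included, both SMARCA5 alleles encoded a fusion to FKBP12F36V, a tag through which the small molecule dTAG-47 brings about degradation of the protein. Untreated tagged cells (0 h) gave 5 libraries, and tagged cells exposed to 500 nM dTAG-47 gave 3 libraries at 2 h, 4 at 6 h and 2 at 24 h. The control group is labelled untreated, no library here came from cells that had dTAG-47 without the tag, and the sources used here do not say whether the tagged line is 1 clone. The 2 parental libraries of the series were not analysed here. SMARCA5 reads do not report on loss of its protein, so the degradation itself was not checked.

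MYC is a basic helix-loop-helix leucine zipper factor that binds DNA as a dimer with MAX, at the E-box CACGTG, and drives genes for ribosome assembly, nucleotide synthesis and cell growth. MXD3, MXD4, MXI1 and MNT compete with MYC for MAX and bring SIN3 and histone deacetylases to the same sites, and MGA, the largest protein of the network, carries MAX into the variant Polycomb complex PRC1.6. MLX is the hub of a parallel arm, in which it pairs with MondoA (encoded by MLXIP), a sensor of glucose metabolites, and also with MNT and MXD4. In myeloid leukaemia MYC keeps the blasts growing, and its decline accompanies their differentiation.

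The column names carry 3 number codes, whose meaning the sources used here do not give and which are called runs 1 to 3 here. Run 1 held 2 untreated libraries and a 2 h library, and run 2 held 2 libraries of each time. Run 3 held an untreated library and 2 libraries of 6 h. All 24 h libraries are thus of run 2, while fits over all libraries also draw on runs 1 and 3 through the run term. Gene-body counts summed to between 11182894 and 34209362 per library and promoter-proximal counts to between 1667950 and 7171601. MYC received 1472 to 7653 gene-body reads per library, MXD4, the least covered member, 270 to 987, and MLX 230 to 1448. Of the 8 Kasumi-1 lineage markers chosen for a check of the cells, CD33, CD34, KIT and MPO were among the listed transcripts. RUNX1T1, ELANE, PRTN3 and ANPEP were not, and neither was any of 7 markers of lymphoid, erythroid, platelet and natural killer cells. Since markers of the line itself were also missing, absence from the list cannot show that other cells were absent. All values are relative to the total of their library, so a change of the whole output would not be seen, and in bulk cells fewer cells that transcribe a gene cannot be told apart from less transcription per cell.

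The E-boxes next to the members are shown because CACGTG is the sequence that dimers of the network bind. The set of RefSeq start sites used here (GRCh38.p14) held 12 sites for 7 of the 8 members and lacked MYC. The 250 bases upstream of each were searched for CACGTG, a palindrome that reads alike on both strands. The motif stood upstream of MNT, MLX and MXD4 and in 3 of the 12 windows (25.0%), against 8.86% of the 10516 windows of genes in the count tables and 6.34% of all 35116 windows. The 3 sites are given 5′ to 3′ on the strand of the gene, with the E-box in capitals. MNT, minus strand, chr17:2401236-2401265, with 187 bases between the motif and the start site:
MNT: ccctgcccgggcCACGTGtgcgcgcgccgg
MLX, plus strand, chr17:42567038-42567067, with 44 bases between the motif and the start site:
MLX: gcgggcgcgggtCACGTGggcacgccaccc
MXD4, minus strand, chr4:2262330-2262359, with 232 bases between the motif and the start site:
MXD4: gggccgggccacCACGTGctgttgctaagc
The MLX site lies closest to its start site. The windows of MAX, MGA, MXD3 and MXI1 did not contain these 6 letters, which says nothing about binding of any factor there. The start sites were not matched to those of the counted transcripts. The bases upstream of a counted transcript may therefore not have been searched, and a MAX window runs into its coding sequence.

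In untreated cells MYC was by far the most densely transcribed member. Its gene body (hg19 chr8:128748315-128753680) held 35.0 ± 9.97 CPM (counts scaled to the library's TMM-adjusted gene-body total) per kilobase of transcript span (SD, n = 5 for all levels given here), the 99.7th percentile of all listed transcripts. MLX (chr17:40719078-40725221) followed at 4.52 ± 0.785, MXI1 (chr10:111967363-112047123) at 4.08 ± 0.853 and MXD3 (chr5:176732501-176739292) at 3.82 ± 0.599, 3 levels that lay within their spread of each other. MNT (chr17:2287354-2304258) stood at 2.77 ± 0.338. MAX (chr14:65472892-65569227) at 1.95 ± 0.0488, MGA (chr15:41952610-42062141) at 1.87 ± 0.0984 and MXD4 (chr4:2249160-2263739) at 1.67 ± 0.527 were the lowest members, again within their spread of each other. The untreated level of MAX, the partner that MYC shares with its competitors and MGA, was the 50.2nd percentile of all transcripts. Its SD was the smallest of the 8. Among related genes outside the set, MXD1 stood at 3.32, MLXIP at 2.83 and MYCN, the neural paralogue of MYC, at 0.746 CPM per kilobase.

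After dTAG-47 the members did not move as a block. A transcript was called where edgeR's quasi-likelihood test, with run as a term and Benjamini-Hochberg adjustment over all transcripts, gave an adjusted p under 0.05. In gene bodies 3 of 8 members were called at 2 h (MLX rose, MGA and MXI1 fell), against 38.6% of all transcripts. At 6 h 4 of 8 were called (MLX rose, MYC, MAX and MGA fell), against 26.8% of all, and at 24 h 2 of 8 (MLX and MXD3 rose), against 19.8% of all. The median log2 change of the 8 was 0.06 at 2 h, -0.003 at 6 h and 0.13 at 24 h, beside a median over all transcripts of 0.01 at each time. MLX was called at all 3 times, MGA at 2, and MNT and MXD4 at none. Without the run term the calls left were MGA at 2 h, MAX and MGA at 6 h and MXD3 at 24 h, where 13.2%, 29.2% and 10.8% of all transcripts were called. Nothing in the labels ties the libraries to separate cultures beyond the study's own words for them, biological replicates, so the p-values measure the spread between these libraries.

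**Figure D1:**
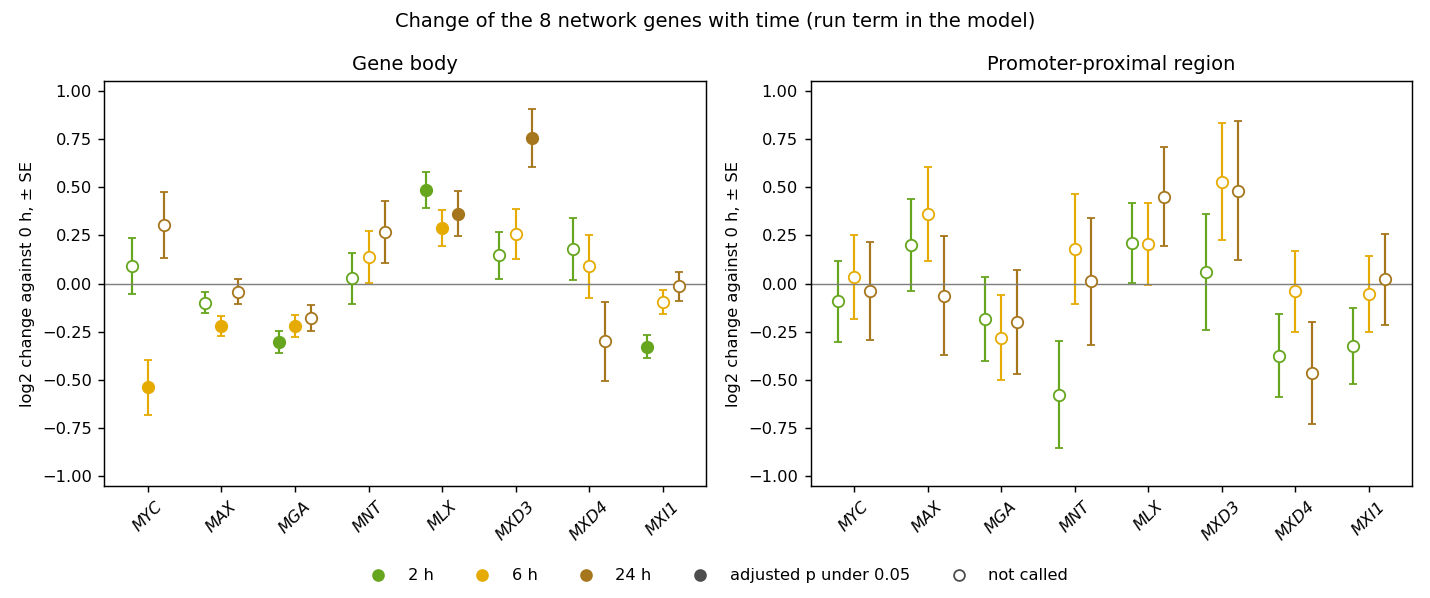
Log2 change of each member against 0 h at 2, 6 and 24 h, in gene bodies and near promoters, with SE as bars and filled points where the adjusted p was under 0.05. In gene bodies MLX is filled at every time, MYC at 6 h only and MXD3 at 24 h only, and near promoters no point is filled.

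MYC fell at 6 h, with no call at the other times. In untreated cells its gene body held 124 and 155 CPM in run 1, 202 and 192 in run 2 and 266 in run 3, so that the values of no run overlapped those of another. At 6 h it held 129.8 and 125 CPM in run 2 and 185 and 149 in run 3, below every untreated library of the same run. Over all untreated libraries the 2 groups overlapped, through run 1. The fitted log2 change at 6 h was -0.54 ± 0.14 (SE, adjusted p = 0.0144), and the difference of means was -0.63 within run 2 and -0.68 within run 3. Without the untreated library of run 3 the change was -0.46 with an adjusted p of 0.115, and without the run term it was -0.35 with an adjusted p of 0.162.

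At 2 h MYC went in opposite directions in the 2 runs that have that time. Run 1 gave 214 CPM, above both of its untreated libraries, and run 2 gave 157 and 175 CPM, below both of its own. The difference of means was 0.63 in run 1 and -0.25 in run 2, and the fit over all libraries gave 0.09 ± 0.14 (adjusted p = 0.636). A test of the difference between the runs was prompted by these values and has 1 library of 2 h in run 1, so it is given as a description: 0.87 ± 0.17 on the log2 scale (edgeR, adjusted p = 0.00394). MYC was the only member called in that test, in which 28.3% of all transcripts were called, and the 6 h changes of runs 2 and 3 differed in 0.437% of transcripts, no member among them. The 2 h library of run 1 had a promoter-proximal share of 17.3% of its reads, against 9.55% and 12.6% in the untreated libraries of that run, while in run 2 the 2 h shares of 11.3% and 15.5% lay below the untreated 19.7% and 20.6%. The part of this difference in the MYC result was not tested.

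At 24 h the MYC gene body held 226 and 216 CPM, above the untreated 202 and 192 of the same run. The fitted change was 0.30 ± 0.17 (adjusted p = 0.230) and the difference within run 2 was 0.17. With run 2 analysed alone, the change of 0.16 at 24 h was called (adjusted p = 0.0230) and so was a change of -0.25 at 2 h (adjusted p = 0.00173), in a fit that called 43.2% and 38.2% of all transcripts at those times. Within run 2 the order of MYC was therefore lowest at 6 h, then 2 h, then 0 h, and highest at 24 h, with no overlap between neighbouring times.

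**Figure D2:**
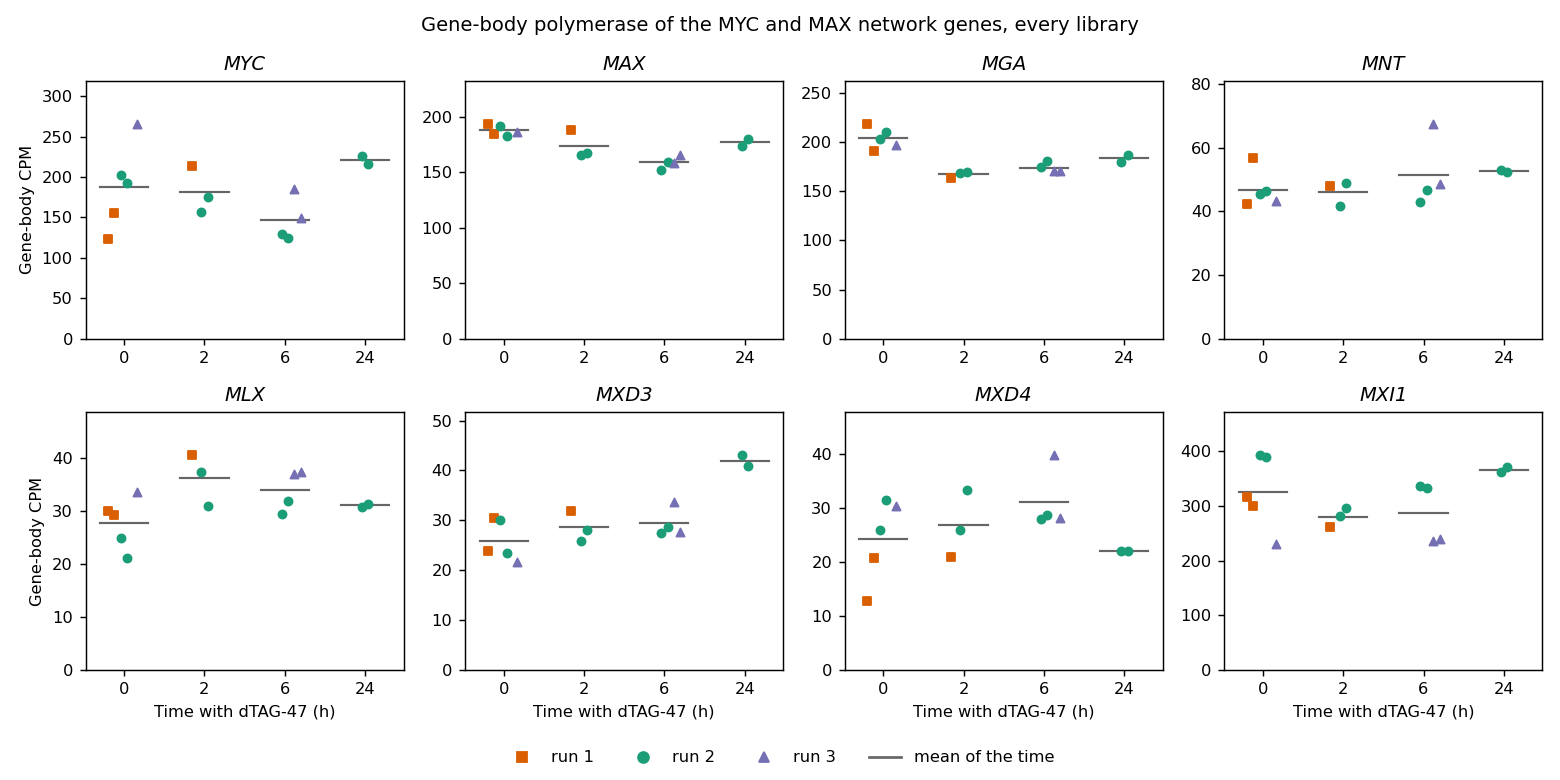
Gene-body CPM of each member in every library by hours of dTAG-47, coloured by run, with a horizontal line at the mean of each time. MYC shows the spread between runs at 0 h, from 124 to 266 CPM, and its 6 h values below the untreated library of the same run, while MAX and MGA vary little within a time.

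MAX, with which MYC binds DNA as a dimer, also fell at 6 h. Its untreated gene body held 194 and 185 CPM in run 1, 192 and 182 in run 2 and 187 in run 3. At 6 h it held 152 and 159.5 in run 2 and 159 and 166 in run 3. All 4 values lay below all 5 untreated ones, and the log2 change was -0.22 ± 0.054 (adjusted p = 0.0101), a fall of similar size in run 2 (-0.27) and run 3 (-0.20). Without 6 h A of run 2 the adjusted p was 0.0590. At 2 h MAX gave 189 CPM in run 1 and 166 and 167 in run 2, and at 24 h 174 and 180.3. The fitted changes were -0.10 ± 0.054 (adjusted p = 0.163) and -0.04 ± 0.066 (adjusted p = 0.689), and both 24 h values lay below the untreated pair of run 2. The span of MAX overlaps CHURC1-FNTB, whose changes were -0.04, -0.07 and -0.04 at 2, 6 and 24 h, with no call.

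MGA fell at 2 h and at 6 h. Untreated cells gave 219 and 191 CPM in run 1, 204 and 211 in run 2 and 197 in run 3. At 2 h MGA held 164 CPM in run 1 and 168 and 170.0 in run 2, and every 2 h value lay below every untreated one. The change at 2 h was -0.30 ± 0.055 (adjusted p = 0.00133), with -0.32 in run 1 and -0.29 in run 2, and the call held when any library was left out. At 6 h MGA held 175 and 181 CPM in run 2 and 171 in both libraries of run 3, again without overlap, a change of -0.22 ± 0.055 (adjusted p = 0.0105). This call was lost without the untreated library of run 3 (adjusted p = 0.0525) or 6 h A of run 2 (adjusted p = 0.0576). At 24 h the values of 179.9 and 187 CPM still lay below the untreated ones, with a change of -0.18 ± 0.067 that missed the threshold (adjusted p = 0.0780). It was called in run 2 alone (adjusted p = 0.00845).

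Other genes of PRC1.6, the Polycomb complex that MGA scaffolds, moved in both directions. Of 11 measured partners 1 rose and 6 fell at 2 h, 1 rose and 5 fell at 6 h, and 1 rose and 1 fell at 24 h. Of all transcripts 19.7%, 13.5% and 10.8% rose and 18.9%, 13.4% and 9.08% fell at these times. Called or not, 7, 8 and 9 of the 11 were lower at 2, 6 and 24 h, and 4, 3 and 2 higher. The median log2 changes of the 11 were -0.22, -0.22 and -0.24. RNF2, a catalytic subunit that ubiquitinates histone H2A, fell by 0.58, 0.36 and 0.37 on the log2 scale (adjusted p = 0.000724, 0.0123 and 0.0381), while its paralogue RING1 rose by 0.57 at each time (adjusted p = 0.00312, 0.00575 and 0.0194). YAF2, an accessory subunit, fell by 0.65 at 2 h (adjusted p = 0.00125). TFDP2, the DNA-binding partner of E2F6, fell by 0.44 and 0.31 at 2 and 6 h (adjusted p = 0.00254 and 0.0194), and CBX3, the heterochromatin protein HP1 gamma, by 0.44 and 0.29 (adjusted p = 0.00292 and 0.0344). PCGF6, the subunit that defines the complex, gave 0.08, 0.002 and -0.12 with no call. The number that fell at 6 h dropped to 0 when the untreated library of run 3 was left out, to 1 when either 6 h library of run 2 was, to 2 for 6 h B of run 3 and to 3 for 0 h A of run 2. The 6 h calls of RNF2, RING1, TFDP2 and CBX3 were all lost without the untreated library of run 3 (adjusted p from 0.0646 for RING1 to 0.138 for RNF2), those of TFDP2 and CBX3 also without either 6 h library of run 2, and that of CBX3 without 0 h B from run 2 or 6 h B from run 3. At 24 h the RNF2 call was lost in 7 of the 14 fits that left out a library (adjusted p up to 0.278), those without the untreated library of run 3, 2 h B or a 6 h library of run 2, 6 h B from run 3 or a 24 h library. The RING1 call at 24 h was lost without 24 h A or 0 h B from run 2 (adjusted p up to 0.259).

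MLX was the member that rose at every time. Untreated cells gave 30.0 and 29.2 CPM in run 1, 24.9 and 21.2 in run 2 and 33.6 in run 3. At 2 h MLX held 40.5 CPM in run 1 and 37.4 and 30.9 in run 2, at 6 h 29.4 and 31.9 in run 2 and 37.0 and 37.3 in run 3, and at 24 h 30.8 and 31.4. Every treated library lay above the untreated libraries of its own run, and over all runs the groups overlapped through the untreated 33.6 CPM of run 3. The log2 changes were 0.48 ± 0.092 at 2 h (adjusted p = 0.00177), 0.29 ± 0.094 at 6 h (adjusted p = 0.0367) and 0.36 ± 0.12 at 24 h (adjusted p = 0.0423). The 2 h call held when any library was left out. The 6 h call was lost without either untreated library or either 6 h library of run 2, 6 h B of run 3 or either 24 h library (adjusted p up to 0.163). The 24 h call was lost when any of these was left out: 0 h B of run 1, an untreated library of run 2, in run 2 also 2 h B and 6 h A, from run 3 6 h B, or a 24 h library (adjusted p up to 0.186). Without the run term no MLX call remained (adjusted p = 0.0848, 0.111 and 0.565).

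The MLX span overlaps PSMC3IP, a recombination cofactor gene, and lies within 1 kb of COASY, which encodes coenzyme A synthase. The strand that was counted is not given in the sources used here. PSMC3IP rose by 0.64, 0.57 and 0.40 at 2, 6 and 24 h (adjusted p = 0.000465, 0.00139 and 0.0368) and COASY by 0.58 at 2 h (adjusted p = 0.0190). The COASY call was lost without the 2 h library of run 1 (0.42, adjusted p = 0.204), and the PSMC3IP call at 24 h in 7 of the 14 fits that left out a library (adjusted p up to 0.215), both without a 24 h library among them. The part of these genes' reads in the MLX result was not tested.

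MondoA, the glucose-sensing partner of MLX, gave no call in gene bodies. The MLXIP gene body gave log2 changes of 0.07 ± 0.077, 0.12 ± 0.079 and 0.21 ± 0.094 (adjusted p = 0.506, 0.287 and 0.125). Near its promoter MLXIP held 31.2 and 32.0 CPM of the promoter-proximal reads in run 1, 51.8 and 45.5 in run 2 and 151 in run 3 before treatment, and 69.4 in run 1 and 112 and 78.7 in run 2 at 2 h. The 2 h values lay above the untreated ones of the same run, a change of 0.98 ± 0.22 (adjusted p = 0.0189). This call of the fit over all libraries was lost when the library left out was 0 h B from run 2 (adjusted p = 0.0614), 2 h A from run 2 (adjusted p = 0.0935) or the 2 h library from run 1 (adjusted p = 0.112), without the run term (0.47, adjusted p = 0.777) and with gene-body size factors (0.80, adjusted p = 0.401). Of 4 genes known to be driven by MondoA and MLX, 1 rose and 1 fell in gene bodies at 2 h. In the same region 1 fell at 6 h and 1 rose at 24 h. At 2, 6 and 24 h, 38.6%, 26.8% and 19.8% of all transcripts were called there. ARRDC4, an arrestin that limits glucose uptake, rose by 0.42 at 2 h (adjusted p = 0.0179) and gave 0.35 and 0.44 at the later times (adjusted p = 0.0523 and 0.0566). Without the 2 h library of run 1 its 2 h change was 0.17 with an adjusted p of 0.338. TXNIP, its relative and the classic glucose-induced gene, gave 0.29 and -0.03 at 2 and 6 h and rose by 0.57 ± 0.18 at 24 h (adjusted p = 0.0424), a call lost without 0 h B of run 1 or run 2, any library of 2 h or 24 h in run 2, or 6 h A of run 2 or run 3 (adjusted p up to 0.181). HK2, a hexokinase, fell by 0.35 and 0.25 at 2 and 6 h (adjusted p = 0.00609 and 0.0411), and KLF10 was not called at any time. Near its own promoter HK2 went the other way at 24 h, with a rise of 1.32 ± 0.32 (edgeR, adjusted p = 0.0461). In that region 1.41% of transcripts were called at 24 h. The 6 h call of HK2 was lost in 9 of the 14 fits that left out a library (adjusted p up to 0.190) and kept without 0 h A from run 1, the untreated library of run 3, the 2 h library of run 1, 2 h A from run 2 or 6 h A from run 3.

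Among the MAX partners that oppose MYC, MXI1 and MXD3 were called, each at 1 time. MXI1 in untreated cells held 316 and 299 CPM in run 1, 393 and 389 in run 2 and 230.1 in run 3. These levels differed between runs too, in another order than those of MYC. At 2 h it held 262 CPM in run 1 and 281 and 296 in run 2, below the untreated libraries of the same run. The log2 change was -0.33 ± 0.061 (adjusted p = 0.00153), with -0.23 in run 1 and -0.44 in run 2, and the call held when any library was left out, though not without the run term (-0.22, adjusted p = 0.376). At 6 h the values were 336 and 334 in run 2, below the untreated pair, and 237 and 239.7 in run 3, above its untreated library. At 24 h they were 362 and 371. The fitted changes were -0.10 ± 0.061 (adjusted p = 0.266) and -0.02 ± 0.074 (adjusted p = 0.903), and the difference within run 2 narrowed from -0.44 at 2 h to -0.22 at 6 h and -0.09 at 24 h.

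MXD3, a MAX partner associated with cycling cells, rose late. Untreated cells gave 23.9 and 30.5 CPM in run 1, 30.1 and 23.5 in run 2 and 21.7 in run 3. At 2 h it held 31.8 CPM in run 1 and 25.8 and 28.1 in run 2. At 6 h it held 27.4 and 28.7 in run 2 and 33.7 and 27.7 in run 3. Over all runs both times overlapped the untreated range. Within runs, the 2 h value of run 1 (0.24) and both 6 h values of run 3 (0.49) lay above their untreated libraries, while run 2 overlapped. At 24 h MXD3 held 43.1 and 40.9 CPM, above all 12 other libraries. The changes were 0.15 ± 0.12, 0.26 ± 0.13 and 0.75 ± 0.15 (adjusted p = 0.367, 0.156 and 0.00430), and the last was the largest change of any member in gene bodies. Without 24 h A the adjusted p at 24 h was 0.0522. PRELID1, a mitochondrial lipid transfer gene whose annotation overlaps MXD3, rose by 0.54, 0.57 and 1.03 at the 3 times (adjusted p = 0.0286, 0.0361 and 0.00556), calls lost in 5, 7 and 1 of the 14 fits that left out a library (adjusted p up to 0.0912, 0.273 and 0.0676). The part of its reads in the MXD3 result was not tested.

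MXD4, a MAX and MLX partner associated with quiescent and differentiating cells, was not called at any time. Its untreated gene body held 12.9 and 20.7 CPM in run 1, 25.9 and 31.5 in run 2 and 30.5 in run 3. The treated values were 21.0 in run 1 and 26.0 and 33.4 in run 2 at 2 h, 28.0 and 28.8 in run 2 and 39.9 and 28.2 in run 3 at 6 h, and 22.1 in both 24 h libraries. At 24 h MXD4 lay below both untreated libraries of run 2, a difference of -0.37 within the run and of -0.30 ± 0.20 in the fit (adjusted p = 0.319). The difference was called in run 2 alone (adjusted p = 0.0205).

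MNT, the broadly expressed repressor that pairs with both MAX and MLX, gave no call either. Untreated cells held 42.3 and 56.6 CPM in run 1, 45.3 and 46.4 in run 2 and 43.3 in run 3. The treated values were 47.8 in run 1 and 41.7 and 49.1 in run 2 at 2 h, 43.0 and 46.8 in run 2 and 67.5 and 48.7 in run 3 at 6 h, and 53.0 and 52.5 at 24 h. Over all runs the groups overlapped at every time. Within runs, both 6 h values of run 3 (0.40) and both 24 h values of run 2 (0.20) lay above their untreated libraries. The other treated values overlapped those of their run. The fitted changes were 0.03 ± 0.13, 0.14 ± 0.14 and 0.27 ± 0.16 (adjusted p = 0.891, 0.476 and 0.255). MXD1, the related repressor outside the set, gave 0.02, 0.16 and 0.10 with no call.

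**Figure D3:**
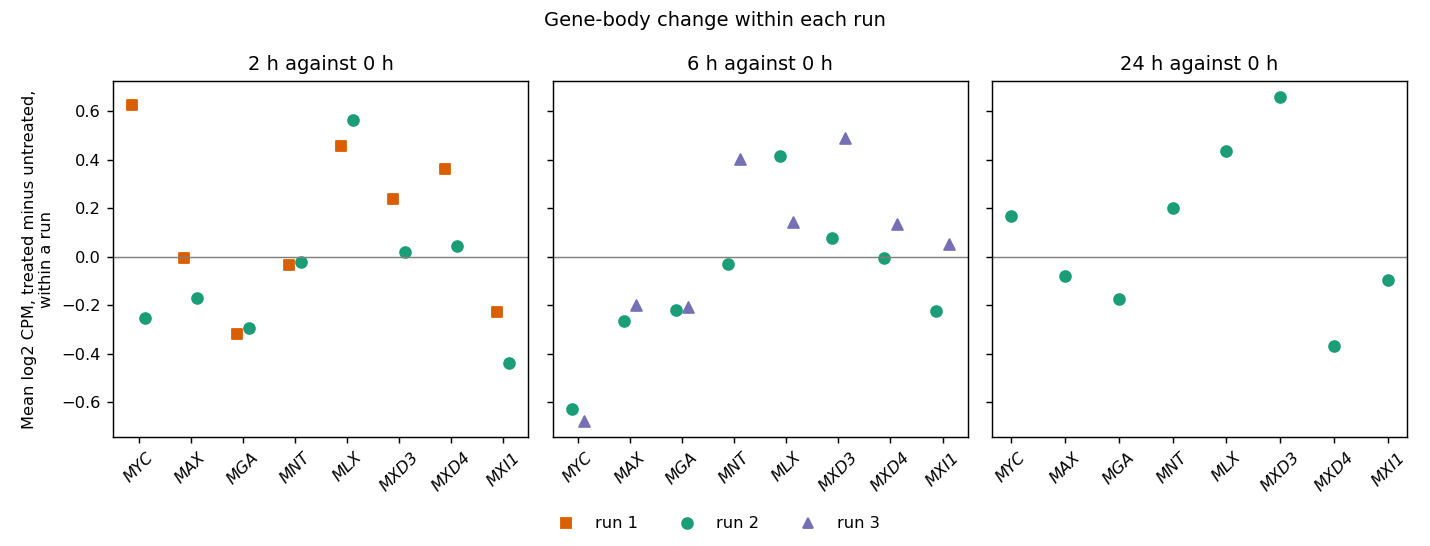
Difference of mean log2 CPM between treated and untreated libraries of the same run for each member, at 2 h (runs 1 and 2), 6 h (runs 2 and 3) and 24 h (run 2). MYC is at 0.63 in run 1 and -0.25 in run 2 at 2 h and at -0.63 and -0.68 at 6 h, while MGA is below 0 and MLX above 0 in every run and time.

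The corepressor genes through which MXD proteins, MXI1 and MNT act were called about as often as all transcripts at 2 h. Of 16 SIN3 and NCOR complex genes 2 rose and 4 fell at 2 h, 1 rose and 1 fell at 6 h, and 1 fell at 24 h, with medians of -0.09, -0.03 and -0.02, where 38.6%, 26.8% and 19.8% of all transcripts were called. HDAC2, a histone deacetylase of these complexes, fell by 0.48, 0.34 and 0.46 on the log2 scale (adjusted p = 0.00325, 0.0262 and 0.0222), and its paralogue HDAC1 gave -0.07, 0.004 and 0.01 with no call. SIN3A, the scaffold, fell by 0.16 at 2 h (adjusted p = 0.0324). BRMS1 and SUDS3, SIN3 complex subunits, rose at 2 h by 0.59 and 0.22 (adjusted p = 0.00333 and 0.00916), SUDS3 also at 6 h by 0.24 (adjusted p = 0.00924). The 2 h call of BRMS1 was lost without the 2 h library of run 1 (0.38, adjusted p = 0.0613), that of SIN3A in 7 of the 14 fits that left out a library (adjusted p up to 0.0945), among them every fit without a 2 h library. The HDAC2 calls were lost at 6 h without the untreated library of run 3, either 6 h library of run 2 or 6 h A from run 3 (adjusted p up to 0.127) and at 24 h without either 24 h library (adjusted p up to 0.185).

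Near promoters MYC carried many more reads than the other members and showed no call. Its promoter-proximal region held 422 and 505 CPM of the promoter-proximal reads in run 1, 542 and 471 in run 2 and 448 in run 3 before treatment. At 2 h it held 437 in run 1 and 483 and 369 in run 2, at 6 h 434 and 392 in run 2 and 723 and 593 in run 3, and at 24 h 432 and 452. At 6 h both libraries of run 2 lay below their untreated libraries and both of run 3 above theirs. The changes were -0.09 ± 0.21, 0.03 ± 0.22 and -0.04 ± 0.25, and the 6 h change reversed with gene-body size factors (-0.21) and in run 2 alone (-0.29).

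None of the 8 members was called near the promoter at 2, 6 or 24 h, against 4.61%, 2.24% and 1.41% of the transcripts tested there. At an unadjusted p under 0.05 edgeR's test gave 1 member, MNT at 2 h (-0.58 ± 0.28, adjusted p = 0.232), and DESeq2 called none. The regions hold few reads, 26 to 144 per library for MAX and 17 to 72 for MNT, and on the scale of promoter-proximal CPM the members lay between 10.2 and 21.9 CPM for MAX, 5.96 and 23.0 for MNT, 7.04 and 65.0 for MXD3, 18.1 and 35.3 for MGA, 34.0 and 63.4 for MLX, 43.1 and 85.0 for MXD4, and 115 and 207 for MXI1. In simulated promoter-proximal counts of this design, 10%, 5% and 1% of 1.5-fold changes at 2, 6 and 24 h were recovered and 53%, 58% and 25% of 2-fold changes, so changes of that size could have been missed. In simulated gene-body counts the shares were 75%, 85% and 62% for 1.5-fold changes. These simulations changed only a small part of the transcripts, all well covered, so recovery in the real fits may differ.

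The members differed widely in how their polymerases were distributed. Summed over the 14 libraries, 31.0% of MYC reads were promoter-proximal, the 77.3rd percentile of all transcripts, 27.3% of MXD4, 19.3% of MLX, 10.9% of MXD3, 8.14% of MXI1, 4.51% of MNT, 2.29% of MGA and 1.64% of MAX. The median over all transcripts was 11.9%, with quartiles of 4.48% and 28.8%. For MYC the share was 27.2% and 32.0% in run 1, 39.3% and 39.0% in run 2 and 21.2% in run 3 before treatment. At 6 h it was 36.4% and 35.8% in run 2 and 36.1% and 35.3% in run 3. The 6 h libraries lay below the untreated pair in run 2 and above the untreated library in run 3. These shares are of raw reads, not adjusted for the share of the whole library. In run 2 that was 19.7% and 20.6% untreated and 14.7% and 15.5% at 6 h. In run 3 it was 13.0% untreated and 11.4% and 12.3% at 6 h. In normalized log2 CPM the 6 h differences of MYC in run 2 were -0.29 near the promoter and -0.63 in the gene body. In run 3 they were 0.55 and -0.68.

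The change of the promoter-proximal value minus that of the gene body was tested with limma on log2 CPM. No member was called at 2, 6 or 24 h, against 1.15%, 0.401% and 0.271% of transcripts. At an unadjusted p under 0.05 the 6 h differences of MAX (0.60 ± 0.23, adjusted p = 0.329) and MYC (0.58 ± 0.25, adjusted p = 0.392) were higher, and the 2 h differences of MNT (-0.55, adjusted p = 0.253) and MXD4 (-0.57, adjusted p = 0.260) were lower. In simulated counts of this kind 0% of 1.5-fold shifts were recovered at each time. Of 2-fold shifts 5%, 10% and 4% were recovered at 2, 6 and 24 h, so even shifts of that size would mostly have been missed.

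Between treated times, 2 members changed. From 2 h to 24 h MXD3 rose by 0.61 ± 0.16 (adjusted p = 0.0463) and MXI1 by 0.31 ± 0.077 (adjusted p = 0.0391), 2 of 8 members against 4.08% of all transcripts. MXD3 lost its call in 10 of the 14 fits that left out a library (adjusted p up to 0.262) and kept it only where the library left out was 0 h A from run 1 or run 2, the 2 h library from run 1 or 6 h A from run 3. MXI1 lost its call in 7 (adjusted p up to 0.296), those without a 2 h, 6 h or 24 h library of run 2 or 6 h B of run 3. From 2 h to 6 h no member was called, against 1.58% of all transcripts, while DESeq2 called 1. At an unadjusted p under 0.05 edgeR gave 2, MYC (-0.63 ± 0.17, adjusted p = 0.0817) and MXI1 (0.23 ± 0.071, adjusted p = 0.129).

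The genes whose gene-body values followed MYC most closely were TPCN1 (r = 0.914), NEURL1B (r = 0.912), ITPA (r = 0.902), ZFP36L2 (r = 0.869) and SNX32 (r = 0.855). These are Pearson correlations of log2 CPM centred within each run, over 14 libraries and among 9689 other genes. For MXI1 the closest were NCK2 (r = 0.979), MGAT5 (r = 0.950) and NEDD9 (r = 0.941). Among the members themselves MNT and MXD3 (r = 0.759), MGA and MXI1 (r = 0.759) and MYC and MAX (r = 0.684) were the most alike, and MGA and MLX (r = -0.839) and MLX and MXI1 (r = -0.766) the most opposed. All these points share libraries, times and depth, and the correlations are given as a description.

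Among genes known as MYC targets, falls were called more often than rises. Of 37 textbook targets 34 were measured: 3 rose and 12 fell at 2 h, none rose and 15 fell at 6 h, and 2 rose and 8 fell at 24 h. Of all transcripts 19.7%, 13.5% and 10.8% rose and 18.9%, 13.4% and 9.08% fell at these times. The median log2 change of the 34 was 0.008, -0.27 and -0.15, beside 0.01 over all transcripts. Called or not, 17 were higher and 17 lower at 2 h, 7 and 27 at 6 h, and 10 and 24 at 24 h. The list was chosen with earlier results of these data known, so its counts are given as a description. The 24 h count of falls was 4 without either 24 h library and 3 without the run term.

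TERT, the catalytic subunit of telomerase, gave the largest changes of the list in gene bodies, -0.95 ± 0.17, -1.90 ± 0.18 and -2.68 ± 0.25 (adjusted p = 0.00137, 1.91e-05 and 2.71e-05). NOLC1, a nucleolar phosphoprotein, fell by 0.51, 0.60 and 0.43 (adjusted p = 0.000151, 4.46e-05 and 0.00286), and EIF4E, the cap-binding translation factor, by 0.53, 0.50 and 0.58 (adjusted p = 0.000181, 0.000207 and 0.000629). WDR43 and POLR1B, which act in ribosomal RNA processing and synthesis, fell by 0.44 and 0.34 at 2 h (adjusted p = 0.00108 and 0.00186) and by 0.49 and 0.44 at 6 h (adjusted p = 0.000642 and 0.000379). PAICS, of purine synthesis, fell by 0.39, 0.46 and 0.46 (adjusted p = 0.00130, 0.000491 and 0.00302). Against this direction SHMT2, of one-carbon metabolism, rose by 0.68 and 0.59 at 2 and 24 h (adjusted p = 0.00309 and 0.0353), IMPDH2, of guanine nucleotide synthesis, by 0.39 at 2 h (adjusted p = 0.00120) and SRM, spermidine synthase, by 0.40 at 2 h (adjusted p = 0.0121). Without the 2 h library of run 1 the 2 h calls of SHMT2 (0.48, adjusted p = 0.0623) and SRM (0.37, adjusted p = 0.0740) were lost, and the 24 h call of SHMT2 was lost in 6 of 14 fits that left out a library (adjusted p up to 0.216).

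**Figure D4:**
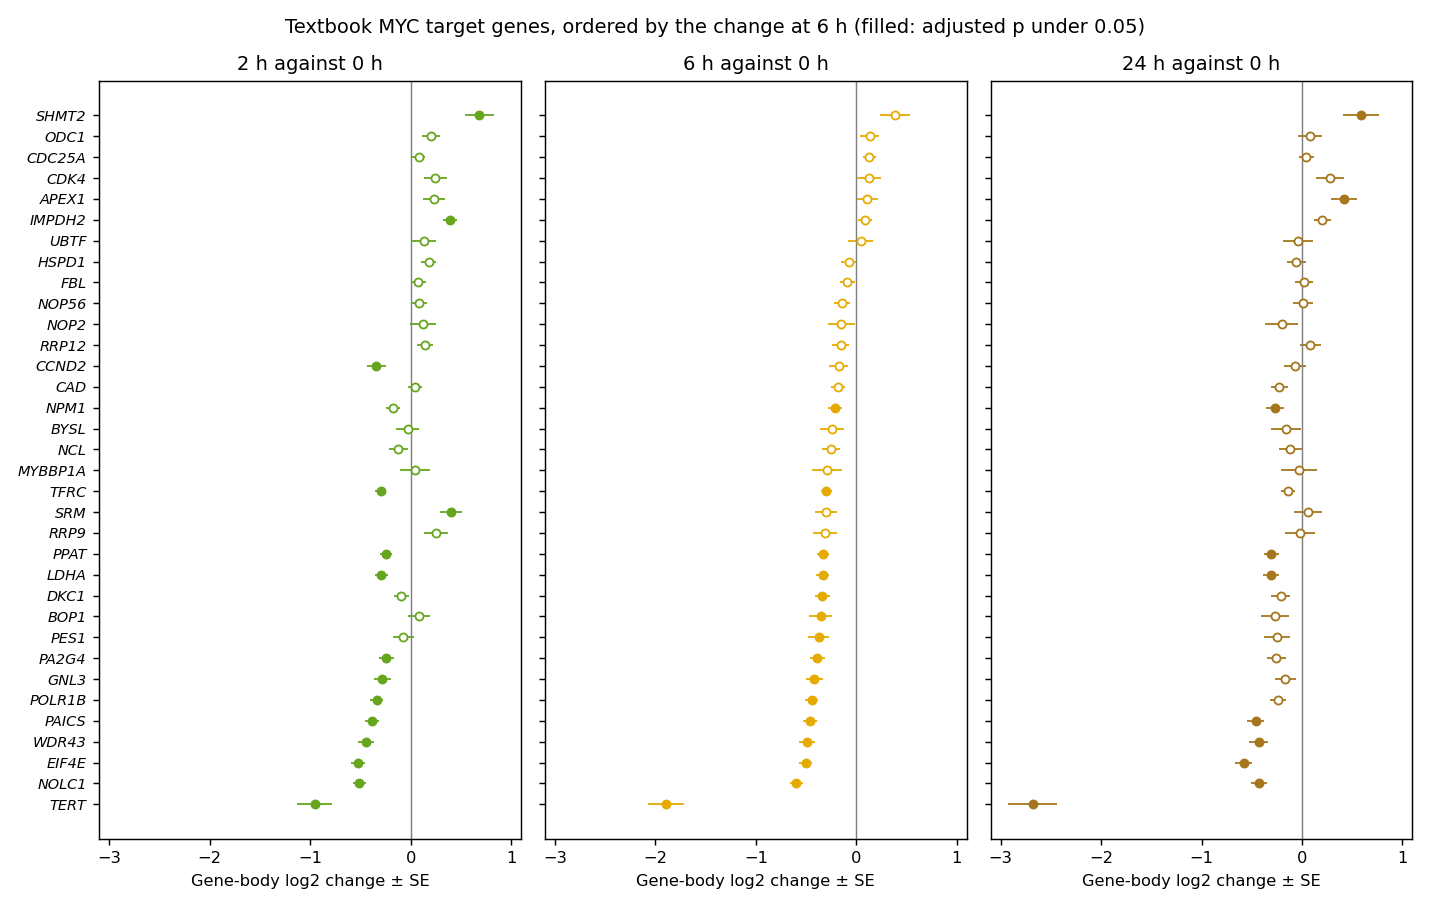
Log2 gene-body change ± SE of 34 textbook MYC targets at 2, 6 and 24 h against 0 h, ordered by the 6 h change, with filled points where the adjusted p was under 0.05. TERT stands apart at the low end at every time, and no target is filled above 0 at 6 h.

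Calls in the whole table were also counted by whether an E-box stood upstream. At 6 h 16.1% of 883 transcripts of genes with CACGTG in a RefSeq window fell, against 12.9% of 6527 without, and the medians were -0.03 and 0.01. At 2 h the shares were 22.5% and 19.3% and at 24 h 11.3% and 9.04%. These differences were not tested. Of the 37 windows of the textbook targets 9 held the motif (24.3%).

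Genes of the coactivators that MYC recruits were called in both directions. Of 17, 5 rose and 1 fell at 2 h, 4 rose and 2 fell at 6 h, and 2 rose and 1 fell at 24 h, with medians of 0.09, 0.04 and 0.08. Of all transcripts 19.7%, 13.5% and 10.8% rose and 18.9%, 13.4% and 9.08% fell at these times. PAF1, of the elongation complex of that name, rose by 0.79, 0.67 and 0.70 (adjusted p = 0.000262, 0.000983 and 0.00410), and the acetyltransferase genes KAT2A and KAT5 rose by 0.64 and 0.38 at 2 h (adjusted p = 0.00884 and 0.0118). TRRAP, the scaffold that joins MYC to these acetyltransferases, fell by 0.18, 0.23 and 0.27 (adjusted p = 0.0161, 0.00627 and 0.00987). Without the 2 h library of run 1 the 2 h calls of KAT2A (0.30, adjusted p = 0.194), KAT5 (0.35, adjusted p = 0.0750) and TRRAP (-0.14, adjusted p = 0.0921) were lost. The 24 h call of PAF1 was lost without 24 h A (adjusted p = 0.0517) and that of TRRAP without 24 h B (adjusted p = 0.121).

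Genes that act on the stability of the MYC protein showed no common direction. Of 18 measured 4 rose and 3 fell at 2 h, 2 rose and 2 fell at 6 h, and 2 rose at 24 h, with medians of 0.001, 0.06 and -0.003, where 38.6%, 26.8% and 19.8% of all transcripts were called. PIM1, a kinase that stabilizes MYC, rose by 0.57 at 2 h (adjusted p = 0.0165), gave 0.29 at 6 h (adjusted p = 0.211) and rose by 1.21 ± 0.20 at 24 h (adjusted p = 0.00146). FBXW7, the ubiquitin ligase subunit that marks phosphorylated MYC for degradation, fell by 0.30 at 2 h (adjusted p = 0.00634). Without the 2 h library of run 1 the 2 h calls of PIM1 (0.24, adjusted p = 0.345) and FBXW7 (-0.25, adjusted p = 0.0536) were lost. Among other genes of the network MYCBP2, a ubiquitin ligase that binds MYC, fell by 0.45 at 2 h (adjusted p = 0.00242), and MYCN was not called (-0.47, -0.11 and 0.48).

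The blood lineage markers also moved over the course. CD33, CD34 and MPO rose at 24 h by 0.85, 0.80 and 0.31 (adjusted p = 0.000315, 0.00193 and 0.0386), and KIT, the stem cell factor receptor, fell by 0.56, 0.34 and 0.20 at 2, 6 and 24 h (adjusted p = 1.2e-05, 0.000187 and 0.0227). The 24 h calls of MPO and KIT were lost in 7 and 4 of the 14 fits that left out a library (adjusted p up to 0.211 and 0.143), those without a 24 h library or an untreated library of run 2 among them. Their part in the changes of the 8 members was not tested.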

How the data were processed

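PRO-seq counts of 14 tagged Kasumi-1 libraries were analysed, and the members and gene lists were chosen with earlier results of these data known. The deposited tables hold raw read counts per RefSeq transcript for gene bodies and promoter-proximal regions, made by the authors. Per the submitters' processing notes the tools were HOMER, SAMtools, Bowtie2 2.2.2, Trimmomatic 0.32, DESeq and DESeq2, and the build hg19. What tool counted, over which windows and on which strand is not given in the sources used here. The tables also hold the authors' deposited log2 fold changes and adjusted p-values, copied only for comparison. The 84 deposited normalized columns were not used. Column names give a time, a letter and a code, called the run here, but no replicate number.

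Counts were tested in R 4.3.3 with edgeR 4.0.16 (TMM, default filter on low counts, quasi-likelihood, time plus run over all 14 libraries), with 10304 transcripts tested in gene bodies and 9980 near promoters and a threshold of 0.05. CPM use the TMM-adjusted library total of a region. The promoter-proximal minus gene-body change was tested with limma 3.58.1 on log2 CPM with a prior count of 2. DESeq2 1.42.0 was an alternative. A SE is the log2 change divided by the root of its F statistic. All 8 members are named with every gene-body value; of each list the genes with the smallest adjusted p are named, with others that describe it. The edgeR and limma fits were tested on simulated counts in which the changed genes were known, and the other steps were not.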

Additional observations from a re-analysis of the deposited data

Results flagged for a closer look

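Each member's CPM in gene bodies and near promoters, at 0 and 6 h, was checked for a library far from the rest of its time. Of 32 groups 2 held one, both in gene bodies, and chance alone gives about 1 in 20. MNT stood at 56.6 CPM in 0 h B of run 1, against 42.3 to 46.4 in the other untreated libraries. MXD4 stood at 39.9 CPM in 6 h A of run 3, against 28.0 to 28.8 in the other 6 h libraries.

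Changes that differed between times or runs were those of MXD3 (0.61 higher on the log2 scale at 24 h than at 2 h) and MXI1 (0.31 higher at 24 h than at 2 h), and the 2 h change of MYC, which was 0.87 higher in run 1, with 1 library of 2 h, than in run 2, in a test prompted by these values.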

How the results depend on the processing

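Of 29 single results (log2 changes of named genes), DESeq2, RLE size factors and no filter on low counts each left the direction and call of all 29 as they were. No called change reversed under any alternative. Members called in gene bodies numbered 3, 4 and 2 at 2, 6 and 24 h. They numbered 1, 2 and 1 without the run term, 5 and 5 at 2 and 24 h with run 2 alone, and 0 and 1 at 6 and 24 h at a threshold of 0.01. Leaving out a library gave 3, 1 to 4 and 0 to 2. From 2 to 6 h, DESeq2 called 1 member against 0, and run 2 alone and the fit without both untreated libraries of run 1 called 2 each (leaving out 1 library, 0 to 1). From 2 to 24 h, 2 members became 0 without the run term or at 0.01, 4 with only the times compared or run 2 alone, and 0 to 3 with a library left out. Near promoters run 2 alone called 1 member at 2 h, and leaving out a library called 0. Falls among MYC targets ranged over 8 to 13, 12 to 17 and 4 to 10 with a library left out, and were 7 at 2 h and 3 at 24 h without the run term and 16 at 24 h with run 2 alone. Falls among PRC1.6 genes ranged over 5 to 6, 0 to 6 and 0 to 3 at 2, 6 and 24 h.

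Changes that were not called and reversed were MYC at 2 h (-0.043 without the run term, -0.25 with run 2 alone, -0.26 without both untreated libraries of run 1, and -0.26 to 0.23 with a library left out, below 0 without 0 h A or 2 h B of run 1), MNT at 2 h (-0.019 without the run term, -0.028 with only the times compared, -0.013 with run 2 alone, -0.049 to 0.11), MNT at 6 h (-0.027 with run 2 alone, -0.036 to 0.22), MXD3 at 2 h (-0.0048 with run 2 alone), MXI1 at 24 h (0.17 without the run term, -0.053 to 0.030), MXD4 at 6 h (-0.0055 to 0.17), MXD1 at 2 h (-0.030 to 0.11), and MYC near the promoter (-0.29 with run 2 alone and -0.21 with gene-body size factors at 6 h; -0.20 to 0.011, -0.25 to 0.17 and -0.15 to 0.10 at 2, 6 and 24 h). The cause was not tested.

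Gene-body calls over all transcripts were 3979, 2762 and 2045. At 2 h they were 1365 without the run term, 1917 with only the times compared and 2546 without both untreated libraries of run 1. At 6 h they were 4383 with run 2 alone, and at 24 h 1111 without the run term and 4447 with run 2 alone. With a library left out they ranged over 1922 to 4265, 1545 to 3329 and 596 to 2551. From 2 h to 6 h and 24 h, 163 and 420 became 409 and 671 with DESeq2, 0 and 48 without the run term, 1707 and 2309 with run 2 alone, and 0 to 220 and 67 to 744 with a library left out. Near promoters 460, 224 and 141 became 704, 358 and 242 with DESeq2, 34, 68 and 22 with gene-body size factors, 1682, 938 and 1430 with run 2 alone, and 137 to 724, 27 to 381 and 3 to 279 with a library left out, and at 2 and 24 h 6 and 20 without the run term. Shifts numbered 115, 40 and 27, against 717, 208 and 629 with run 2 alone, an alternative chosen after seeing the data. Without the run term there were 2, 32 and 7 shifts. With a library left out there were 12 to 152 at 2 h and 0 to 88 at 6 h. The columns carry a letter but not the replicate number of the labels. A fit with the letter within its run as a replicate block, added after seeing the data, called 1 member at 24 h (MLX lost, adjusted p = 0.0657), 0 from 2 to 24 h, 2 falls among PRC1.6 genes at 6 h, and 2845, 2307, 1723, 5 and 247 transcripts at 2, 6 and 24 h and from 2 h to 6 h and 24 h. It ended the MLX call at 6 h (adjusted p = 0.0620), and gave MYC -0.0082 and MNT -0.017 at 2 h. In run 2 the libraries of 1 letter did not deviate together (r from -0.068 to 0.13 over 6 pairs of times), so the letters were not taken as pairs. In simulated counts fewer changes were recovered near promoters than in gene bodies, and 24 h was measured in 2 libraries of 1 run.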
